A study of Mus musculus with 10 samples.

Results

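The potassium channel subunits are the genes whose symbol is Kcn, a subfamily letter or letters and a number. Of the 55401 genes in the deposited table, 91 were included, and 1 matching inward rectifier row was set aside. By symbol they comprised 40 voltage-gated, 14 inward rectifier, 14 two-pore, 8 calcium-activated and 15 auxiliary subunits. The calcium-activated set here holds the Kcnm, Kcnn, Kcnt and Kcnu pore subunits, including the sodium-activated Kcnt channels, and the auxiliary set holds the Kcnab, Kcne, Kcnip and Kcnmb genes, which form no pore.

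Total RNA of mouse cerebral cortex was sequenced from 5 mice with traumatic brain injury (TBI) and 5 Sham mice, 1 library each. In the series design the controls are naive mice, so it is unclear if they were operated on. The injury type, the side and distance of the tissue from the injury, the time after injury, and the strain, sex and age of the mice are not given in the sources used here. No transgene, drug or other agent is named for either group. The libraries held 47.6 to 71.3 megacounts.

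Potassium channels let potassium leave or enter a cell along its gradient. In cortical neurons voltage-gated channels repolarise the action potential and set firing rate, inward rectifiers and two-pore channels hold the resting potential, and calcium-activated channels couple calcium entry to repolarisation. Glia use potassium channels to take up potassium released by active neurons, and in microglia and macrophages potassium efflux is one trigger of inflammasome assembly. Auxiliary subunits change the gating, location or surface number of the channels they bind.

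The common feature of the pore-forming members is the selectivity filter, a short loop of each subunit or repeat that holds potassium ions. A signature of 5 codons was searched in the reading frame of 1 coding transcript per gene in GENCODE M21. It was threonine or serine, then valine, isoleucine, leucine or threonine, then glycine, then tyrosine, phenylalanine or leucine, then glycine. All 76 pore-forming members carried it, all 14 two-pore members carried 2 or more copies, and 0 of the 15 auxiliary members carried it, against 346 of 21866 protein-coding genes (1.58%). The pattern had been widened after a narrower one missed 2 two-pore members, so the complete count is a description. The windows below are shown for the 4 members that differed between TBI and Sham and for the most abundant inward rectifier and calcium-activated subunits. They are coding DNA of the sense strand, 5′ to 3′, with the 5 signature codons in capitals and 8 codons on each side.
Kcnk6, signature 1: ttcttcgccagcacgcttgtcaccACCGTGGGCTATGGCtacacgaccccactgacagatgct
Kcnk6, signature 2: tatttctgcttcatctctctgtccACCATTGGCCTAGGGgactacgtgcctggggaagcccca
Kcnv1: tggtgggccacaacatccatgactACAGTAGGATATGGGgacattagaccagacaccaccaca
Kcnb2: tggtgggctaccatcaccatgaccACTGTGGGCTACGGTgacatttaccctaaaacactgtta
Kcnt2: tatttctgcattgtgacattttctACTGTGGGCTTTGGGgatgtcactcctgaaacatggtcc
Kcnma1: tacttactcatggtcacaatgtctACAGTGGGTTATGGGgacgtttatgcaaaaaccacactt
Kcnj4: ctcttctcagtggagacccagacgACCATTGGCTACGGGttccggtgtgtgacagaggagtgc

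On GRCm38 (mm10), the first Kcnk6 window was split between chr7:29232162-29232192 in exon 1 and chr7:29225836-29225867 in exon 2 of 3, minus strand. Its second window was at chr7:29225512-29225574 in exon 2. The Kcnv1 window was at chr15:45109265-45109327, minus strand, in exon 3 of 3, and the Kcnb2 window at chr1:15710022-15710084, plus strand, in exon 2 of 2. The Kcnt2 window was at chr1:140425254-140425316, plus strand, in exon 9 of 28. The Kcnma1 window was at chr14:23528389-23528451, minus strand, in exon 8 of 30, and the Kcnj4 window at chr15:79485343-79485405, minus strand, in exon 2 of 2. In the fourth signature codon Kcnk6 carried a tyrosine codon in the first loop and a leucine codon in the second, Kcnt2 a phenylalanine codon, and the other 4 genes tyrosine codons.

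Levels are given as FPKM, fragments per kilobase of transcript scaled to the fragments of the library, as mean ± SD with n = 5 in each group unless each library is listed. A gene was tested if it reached 0.5 FPKM in at least 5 of the 10 libraries, and 69 of the 91 members did. Each of the 69 reached it in at least 9 libraries, so none entered through 1 group alone. Nearest inside this limit were Kcnmb2, Kcnj14 and Kcng2 with means over all libraries of 0.717, 0.724 and 0.761 FPKM. Just outside were Kcnh6 and Kcne4 with means of 0.525 and 0.414 FPKM, at 0.5 FPKM or more in 4 and 3 libraries. Kcne2, with a mean of 0.364 FPKM, reached 0.5 FPKM in 1 library. TBI was compared with Sham by edgeR's quasi-likelihood test over all 16316 tested genes, and called means an adjusted p under 0.05. The common biological coefficient of variation was 20.9%.

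Between TBI and Sham cortex 4 of the 69 tested potassium channel members passed the test and 65 did not. The two-pore subunit Kcnk6 rose 1.95-fold, and the voltage-gated subunits Kcnv1 and Kcnb2 and the sodium-activated subunit Kcnt2 fell 1.36-fold, 1.30-fold and 1.42-fold. The 4 members are 5.80% of those tested, and 4.04% of all 16316 tested genes were called. Separately by direction, 1 member (1.45%) was higher against 3.57% of all tested genes, and 3 members (4.35%) were lower against 0.472% of all tested genes. The 4 called members were also the only tested members whose 5 TBI values did not overlap the 5 Sham values, and 6.33% of all tested genes did not overlap. The 1 member higher in all TBI libraries stands beside 5.60% of all tested genes, and the 3 lower in all TBI libraries beside 0.729%. An unadjusted p under 0.05 was reached by 13 of 69 members (18.8%) and by 15.0% of all tested genes. The cortex was sequenced in bulk, so fewer cells of a type and less RNA per cell cannot be told apart for any of these members.

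**Figure D1:**
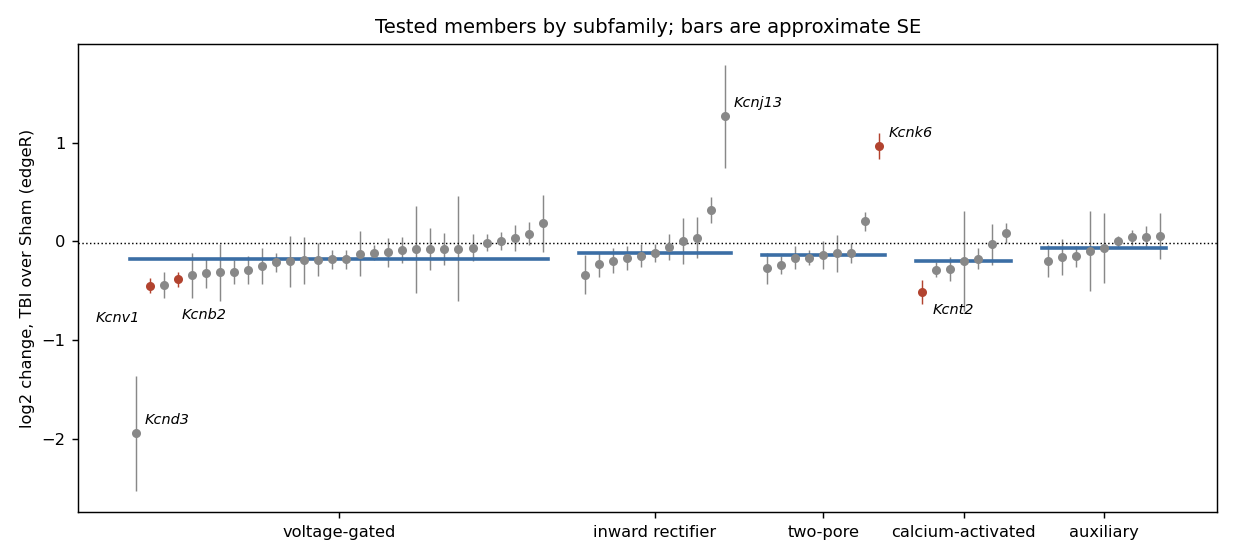
Log2 change, TBI over Sham, of 66 tested potassium channel members (points, with approximate SE), ordered within each subfamily, with the median over all tested members of the subfamily as a blue line. Kcnk6, Kcnv1, Kcnb2 and Kcnt2 (red) passed the test, the medians lie between -0.20 and -0.07, and Kcnd3 and Kcnj13 have large changes with wide errors.

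Changes in the 4 pore-forming subfamilies were centred slightly below 0. The median log2 change was -0.18 for the 33 tested voltage-gated members, -0.12 for the 11 inward rectifiers, -0.14 for the 9 two-pore members, -0.20 for the 7 calcium-activated members and -0.07 for the 9 auxiliary members, against -0.01 for all tested genes. Log2 changes below 0 were found for 28 of 33 voltage-gated, 7 of 11 inward rectifier, 7 of 9 two-pore, 6 of 7 calcium-activated and 5 of 9 auxiliary members. Over the 69 tested members the share was 76.8%, and over all tested genes it was 52.7%. The change was under 0.2 in size on the log2 scale for 45 of the 69. The auxiliary median had the opposite sign in the limma alternatives, at 0.04 under each pseudocount tried. The median over all tested genes was also above 0 there, at 0.02 with a pseudocount of 1 and 0.03 with 0.1.

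Summed over their members, the 4 pore-forming subfamilies had lower means in TBI than in Sham, with overlapping libraries. The voltage-gated members summed to 279 ± 14.6 FPKM in TBI and 304 ± 19.3 FPKM in Sham. The inward rectifiers summed to 125 ± 3.56 FPKM in TBI and 134 ± 6.60 FPKM in Sham, and the two-pore members to 71.3 ± 2.51 FPKM in TBI and 76.2 ± 4.45 FPKM in Sham. For the inward rectifiers the ranges were 120 to 128 FPKM in TBI and 124 to 142 FPKM in Sham. The calcium-activated members summed to 39.8 ± 1.53 FPKM in TBI and 42.8 ± 3.40 FPKM in Sham, and the auxiliary members to 174 ± 21.5 FPKM in TBI and 173 ± 22.3 FPKM in Sham. No test was made on these sums.

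Each library was also given a score per subfamily, the median over its tested members of the log2 deviation from the Sham mean. Voltage-gated scores were -0.29 to -0.10 in TBI and -0.12 to 0.20 in Sham, and inward rectifier scores were -0.20 to -0.02 in TBI and -0.10 to 0.08 in Sham. Two-pore scores were -0.21 to 0.04 in TBI and -0.12 to 0.12 in Sham, and auxiliary scores were -0.23 to 0.12 in TBI and -0.09 to 0.07 in Sham. Calcium-activated scores were -0.23 to -0.17 in TBI and -0.09 to 0.15 in Sham. The TBI and Sham scores overlapped in 4 of the 5 subfamilies and not in the calcium-activated one, whose score rests on 7 tested members. Its summed levels did overlap, at 37.8 to 41.6 FPKM in TBI and 38.2 to 46.2 FPKM in Sham. How often sets of other genes fail to overlap in this score was not measured, and whether the subfamilies differ was not tested.

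Markers of other cell types moved between the same libraries, where 3.57% of all tested genes were called higher and 0.472% lower. All 6 microglial markers were called higher, and their summed level was 195 to 421 FPKM in TBI against 81.3 to 92.1 FPKM in Sham. Astrocyte markers were called higher for 2 of 6, Gfap and Aqp4. The 6 astrocyte markers had sums of 352 to 621 FPKM in TBI and 186 to 273 FPKM in Sham. Gfap alone had 164 to 319 FPKM in TBI and 27.6 to 41.9 FPKM in Sham (log2 change 2.72). The separation of the astrocyte sums is thus in large part that of Gfap, and sums without it were not made. Aldh1l1, Slc1a3, Slc1a2 and Gja1 were not called, with log2 changes of 0.114 to 0.496. Of 10 neuronal markers 1 was called lower, the neurofilament gene Nefl, with 104 ± 6.25 FPKM in TBI and 118 ± 3.03 FPKM in Sham. The median log2 change of the neuronal markers was -0.11, and their sums were 1030 to 1190 FPKM in TBI and 1169 to 1312 FPKM in Sham. Of 4 endothelial markers 1 was called higher, the junction gene Cdh5, with 4.56 ± 0.372 FPKM in TBI and 3.51 ± 0.232 FPKM in Sham (log2 change 0.34, edgeR adjusted p = 0.033). The median log2 change of the endothelial markers was 0.18, and their sums were 27.0 to 33.8 FPKM in TBI and 21.8 to 28.8 FPKM in Sham. The 4 interneuron markers and the 6 oligodendrocyte markers did not pass the test, and no marker of these 6 cell types was at 0 in all libraries. The part of these shifts in the channel values was not tested.

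**Figure D2:**
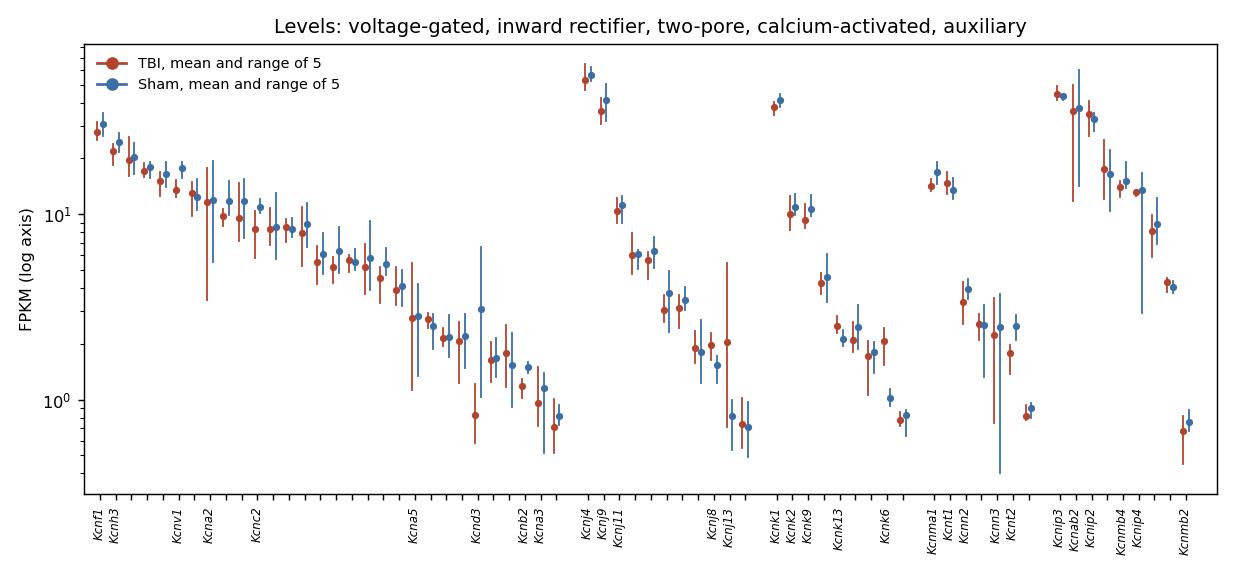
FPKM (log axis) of 66 tested members by subfamily, with names for those described; points are means and lines the lowest to highest of 5 libraries, TBI in red and Sham in blue. Kcnj4, Kcnip3, Kcnk1, Kcnab2 and Kcnj9 lie highest, and the lines are longest for Kcnd3, Kcnj13 and Kcnn3.

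Kcnk6, a background potassium channel subunit that in mouse macrophages carries potassium efflux upstream of the inflammasome, was the only member called higher. Its levels were 2.45, 1.91, 2.30, 1.54 and 2.11 FPKM in the 5 TBI libraries, against 0.946, 0.922, 1.06, 1.14 and 1.06 FPKM in the 5 Sham libraries. Every TBI library was above every Sham library, and the lowest TBI value was replicate 4. The means were 2.06 ± 0.355 FPKM in TBI and 1.03 ± 0.0918 FPKM in Sham, with a log2 change of 0.97 (SE 0.13, edgeR adjusted p = 0.0021). The call held when each library was left out in turn, with edgeR adjusted p values of 4.7e-04 to 0.0087. Kcnk6 (ENSMUSG00000046410) lies at chr7:29221926-29232515 on the minus strand and shares no exonic base with another annotated gene. The 6 microglial markers were higher in the same libraries, with a median log2 change of 1.21, and their part in the Kcnk6 value was not tested.

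The other two-pore members were not called. Kcnk1, the most abundant, had 38.1 ± 2.52 FPKM in TBI and 41.5 ± 3.34 FPKM in Sham (log2 change -0.16). Kcnk2, a mechanically gated and lipid-gated channel, had 9.99 ± 1.63 FPKM in TBI and 10.9 ± 1.25 FPKM in Sham, and the acid-sensitive Kcnk9 had 9.35 ± 1.12 FPKM in TBI and 10.7 ± 1.20 FPKM in Sham. Their log2 changes were -0.16 and -0.24. Kcnk13, a channel found in microglia, had 2.51 ± 0.223 FPKM in TBI and 2.12 ± 0.197 FPKM in Sham. It was the only other two-pore member with a change above 0 (log2 change 0.21), and its edgeR adjusted p was 0.35. For Kcnk3, Kcnk4, Kcnk10 and Kcnk12 the log2 changes were between -0.27 and -0.12.

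Among voltage-gated members, the pair that fell were the silent subunit Kcnv1 and the delayed rectifier Kcnb2. Kcnv1 is an electrically silent subunit, which forms no channel alone and changes the gating of delayed rectifier subunits such as Kcnb2 when it assembles with them. Its levels were 12.4, 12.6, 15.3, 13.6 and 13.4 FPKM in TBI, against 17.4, 19.2, 18.6, 18.4 and 15.6 FPKM in Sham. The groups did not overlap, although TBI replicate 3 and Sham replicate 5 were close. The means were 13.5 ± 1.12 FPKM in TBI and 17.9 ± 1.42 FPKM in Sham (log2 change -0.45, SE 0.08, edgeR adjusted p = 0.0071). The call held in all 10 fits that left out 1 library, with edgeR adjusted p values of 0.0047 to 0.023. Kcnv1 (ENSMUSG00000022342) lies at chr15:45106284-45114920 on the minus strand and shares no exonic base with another annotated gene.

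Kcnb2 encodes a delayed rectifier, a slowly inactivating channel that repolarises the cell body and dendrites. Its levels were 1.29, 1.27, 1.11, 1.02 and 1.24 FPKM in TBI, against 1.55, 1.60, 1.40, 1.47 and 1.50 FPKM in Sham. All TBI values were lower than all Sham values, with means of 1.19 ± 0.116 FPKM in TBI and 1.50 ± 0.0785 FPKM in Sham (log2 change -0.38, SE 0.08, edgeR adjusted p = 0.017). The call was lost without TBI replicate 3 (edgeR adjusted p = 0.053) and without Sham replicate 2 (0.052), and in limma (0.089 and 0.094 by pseudocount). Kcnb2 (ENSMUSG00000092083) lies at chr1:15287254-15723750 on the plus strand.

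The silent subunits as a whole are the Kcnf, Kcng, Kcns and Kcnv genes, 10 in number with 8 tested. They summed to 58.1, 66.8, 62.7, 68.4 and 62.8 FPKM in TBI, against 76.4, 82.0, 70.1, 71.5 and 67.1 FPKM in Sham. The groups overlapped only by Sham replicate 5, which lay below TBI replicate 4. The mean sums were 63.8 ± 4.05 FPKM in TBI and 73.4 ± 5.87 FPKM in Sham. They include Kcnv1, whose means were 13.5 FPKM in TBI and 17.9 FPKM in Sham. The near-separation of the sums is thus in part that of Kcnv1, and sums without it were not made. Kcnf1, the most abundant of them, had 27.9 ± 2.79 FPKM in TBI and 30.8 ± 4.16 FPKM in Sham and was not called (log2 change -0.18, edgeR adjusted p = 0.42). Kcnv1 was the only silent subunit called.

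**Figure D3:**
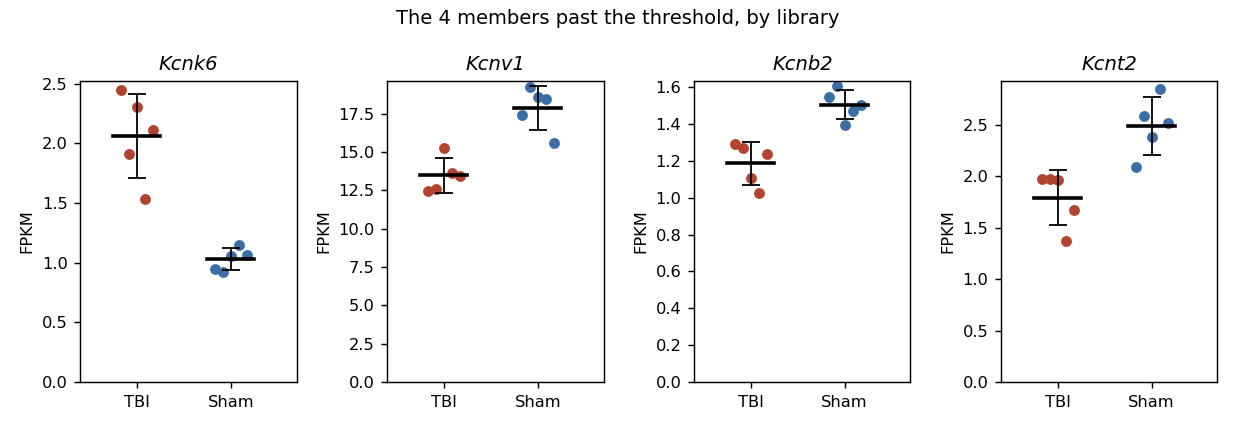
FPKM of Kcnk6, Kcnv1, Kcnb2 and Kcnt2 in each TBI (red) and Sham (blue) library; bars are mean ± SD, n = 5. TBI libraries lie above Sham libraries for Kcnk6 and below them for the other 3 genes, with no overlap.

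Other voltage-gated members did not pass the test. Kcnc2, whose fast channels allow high firing rates in interneurons, had 8.88, 7.44, 5.82, 9.01 and 10.4 FPKM in TBI, against 10.2, 11.7, 10.4, 12.1 and 10.5 FPKM in Sham. The groups overlapped, because TBI replicate 5 lay above the lowest Sham library (log2 change -0.44, edgeR adjusted p = 0.115). Kcnh3, a forebrain channel active near the resting potential, had 21.9 ± 2.26 FPKM in TBI and 24.6 ± 2.73 FPKM in Sham (log2 change -0.21, edgeR adjusted p = 0.34). A further 21 voltage-gated members had log2 changes of -0.34 to 0.18, edgeR adjusted p values of at least 0.25, and mean levels of 0.708 to 19.7 FPKM in TBI and 0.815 to 20.4 FPKM in Sham. They include the Kcna1, Kcna4 and Kcna6 subunits of axonal channels, the fast Kcnc1 and Kcnc4 channels, the dendritic A-type channel Kcnd2, and Kcnq3 and Kcnq5 of the M-current, the slow current that restrains repetitive firing.

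Within the calcium-activated set, Kcnt2 was lower and its paralog Kcnt1 was not called. Kcnt2 carries a sodium-activated current that follows bursts of firing. Its levels were 1.97, 1.98, 1.96, 1.37 and 1.68 FPKM in TBI, against 2.09, 2.59, 2.39, 2.85 and 2.52 FPKM in Sham. The groups did not overlap but Sham replicate 1 came close to the upper TBI libraries. The means were 1.79 ± 0.265 FPKM in TBI and 2.49 ± 0.280 FPKM in Sham (log2 change -0.51, SE 0.12, edgeR adjusted p = 0.039). This call was held in 2 of the 10 fits that left out 1 library, those without TBI replicate 4 and without Sham replicate 1. Over these 10 fits the edgeR adjusted p ran from 0.031 to 0.107, and without the filter on low values it was 0.063. Kcnt2 (ENSMUSG00000052726) lies at chr1:140246158-140612067 on the plus strand and shares 102 exonic bases, 1.48% of its own, with an opposite-strand gene. Kcnt1 had 14.7 ± 1.83 FPKM in TBI and 13.5 ± 1.49 FPKM in Sham (log2 change 0.09, edgeR adjusted p = 0.78).

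Kcnma1, the large-conductance channel opened jointly by calcium and depolarisation, was the member nearest the threshold without passing it. It had 14.1, 15.4, 14.2, 14.2 and 13.4 FPKM in TBI, against 16.7, 19.2, 18.2, 15.8 and 14.6 FPKM in Sham. Only Sham replicate 5 lay within the TBI range. The log2 change was -0.29 (SE 0.08) with an edgeR adjusted p of 0.075, and without Sham replicate 5 the adjusted p was 0.026. Kcnmb4, the neuronal auxiliary subunit of Kcnma1, had 14.0 ± 1.21 FPKM in TBI and 15.2 ± 2.21 FPKM in Sham and was not called. Kcnn2, a small-conductance channel that contributes to the afterhyperpolarisation, had 3.35 ± 0.645 FPKM in TBI and 3.97 ± 0.355 FPKM in Sham (log2 change -0.28, edgeR adjusted p = 0.32). A further 2 tested calcium-activated members had log2 changes of -0.17 and -0.03.

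No inward rectifier was called by edgeR or DESeq2, and edgeR called 4.04% of all tested genes. An unadjusted edgeR p under 0.05 was reached by 2 of the 11 tested (18.2%) and by 15.0% of all tested genes. Kcnj4, a strong rectifier of forebrain neurons and the most abundant of the 91 included genes, had 53.3 ± 6.91 FPKM in TBI and 56.3 ± 4.17 FPKM in Sham (log2 change -0.12, edgeR adjusted p = 0.62). Kcnj9, a subunit of channels opened by G proteins, had 36.2 ± 4.51 FPKM in TBI and 41.3 ± 7.40 FPKM in Sham (log2 change -0.23). The ATP-sensitive channel subunits gave changes of opposite sign, neither called: neuronal Kcnj11 had 10.4 ± 1.41 FPKM in TBI and 11.2 ± 1.46 FPKM in Sham, and Kcnj8, typical of brain pericytes, had 1.96 ± 0.258 FPKM in TBI and 1.53 ± 0.201 FPKM in Sham. Their log2 changes were -0.14 and 0.32, with edgeR adjusted p values of 0.66 and 0.28. Beside Kcnj8, none of the 4 mural cell markers was called (median log2 change -0.04), and 1 of the 4 endothelial markers was higher. Their part in its value was not tested. The 6 tested inward rectifiers whose changes are not given singly had log2 changes of -0.33 to 0.04.

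Kcnj13 had the largest positive change among inward rectifiers, and it rested largely on 1 library. This channel of choroid plexus and retinal pigment epithelium had 5.46, 1.96, 0.947, 1.10 and 0.712 FPKM in TBI, against 0.999, 0.941, 0.535, 0.860 and 0.748 FPKM in Sham. TBI replicate 1 was the highest, TBI replicates 2 and 4 were also above all Sham libraries, and TBI replicates 3 and 5 lay within the Sham range. The log2 change was 1.26 (SE 0.52, edgeR adjusted p = 0.28), and without TBI replicate 1 it was 0.49. The auxiliary subunit Kcne2, also a choroid plexus gene and below the filter, had 2.60, 0.127, 0.0809, 0 and 0.126 FPKM in TBI, against 0.0949, 0.122, 0.189, 0.0894 and 0.211 FPKM in Sham. The choroid plexus marker Ttr reached 853 FPKM in TBI replicate 1, against 0.24 to 1.92 FPKM in the other TBI libraries and 0.32 to 27.6 FPKM in Sham. The part of the tissue taken in the Kcnj13 value was not tested. Kcnj13 also shares 623 exonic bases, 49.1% of its own, with Gigyf2 on the opposite strand, and whether the counting used strand is not stated.

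**Figure D4:**
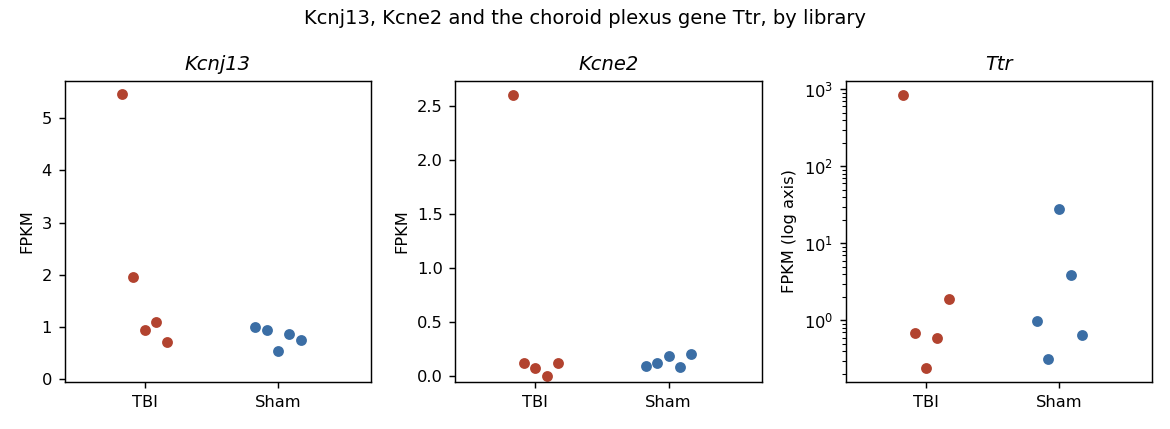
FPKM of Kcnj13, Kcne2 (linear axes) and the choroid plexus marker Ttr (log axis) in each TBI (red) and Sham (blue) library. TBI replicate 1 is the highest library for all 3 genes, at 5.46, 2.60 and 853 FPKM.

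Of the 9 tested auxiliary subunits 0 were called by edgeR or DESeq2, and 0 had an unadjusted edgeR p under 0.05. Among all tested genes edgeR called 4.04%, and 15.0% had an unadjusted p under 0.05. Kcnip3, a calcium sensor that binds Kcnd channels and also acts as a transcriptional repressor, had 44.4 ± 2.89 FPKM in TBI and 43.2 ± 1.43 FPKM in Sham. Kcnip2, a related Kcnd partner, had 34.6 ± 5.19 FPKM in TBI and 32.5 ± 2.73 FPKM in Sham. Their log2 changes were 0.00 and 0.05. Kcnab2, a cytoplasmic subunit of axonal Kcna channels, had 49.7, 11.8, 31.5, 43.3 and 43.5 FPKM in TBI, against 38.2, 14.1, 33.6, 59.7 and 41.6 FPKM in Sham. Replicate 2 was the lowest library of each group and the groups overlapped fully (log2 change -0.10, edgeR adjusted p = 0.95). Kcnmb2, an inactivating partner of Kcnma1, had 0.678 ± 0.142 FPKM in TBI and 0.757 ± 0.0820 FPKM in Sham. The 3 tested auxiliary members not given singly had log2 changes of -0.15 to 0.06.

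Some members were widely spread between libraries. The ratio of the highest to the lowest of the 10 libraries had a median of 1.74 over the 69 tested members and was under 2 for 44, but it was at least 3 for 9. They included Kcnd3, Kcnj13, Kcnn3, Kcnip4, Kcna2, Kcnab2 and Kcna5, with ratios of 4.87 to 11.5. The Kcnd3 subunit of A-type channels had 0.788, 0.890, 0.581, 1.22 and 0.680 FPKM in TBI, against 1.03, 1.19, 6.68, 5.46 and 1.04 FPKM in Sham. Sham replicates 3 and 4 stood far above the rest (log2 change -1.94, SE 0.58, edgeR adjusted p = 0.112).

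Kcnip4, a further Kcnd partner, showed the reverse case, with 1 low control. It had 13.6, 12.6, 13.6, 12.9 and 13.2 FPKM in TBI, against 15.4, 16.0, 2.95, 16.7 and 16.2 FPKM in Sham. All TBI libraries were lower than 4 Sham libraries, and Sham replicate 3 was lower than all others. The log2 change was -0.07 (edgeR adjusted p = 0.96) with that library and -0.32 (edgeR adjusted p = 0.0089) without it. The axonal subunit Kcna2 had 17.8, 3.75, 3.46, 15.6 and 17.8 FPKM in TBI, against 7.18, 9.87, 5.56, 19.4 and 17.8 FPKM in Sham. It fell into high and low libraries in both groups, with no difference between them called. For the 62 members with at least 200 counts in every library, count divided by FPKM was constant within 0.554% across libraries after 1 factor per library, so the files treat each gene as 1 fixed length and these values do not separate isoforms.

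**Figure D5:**
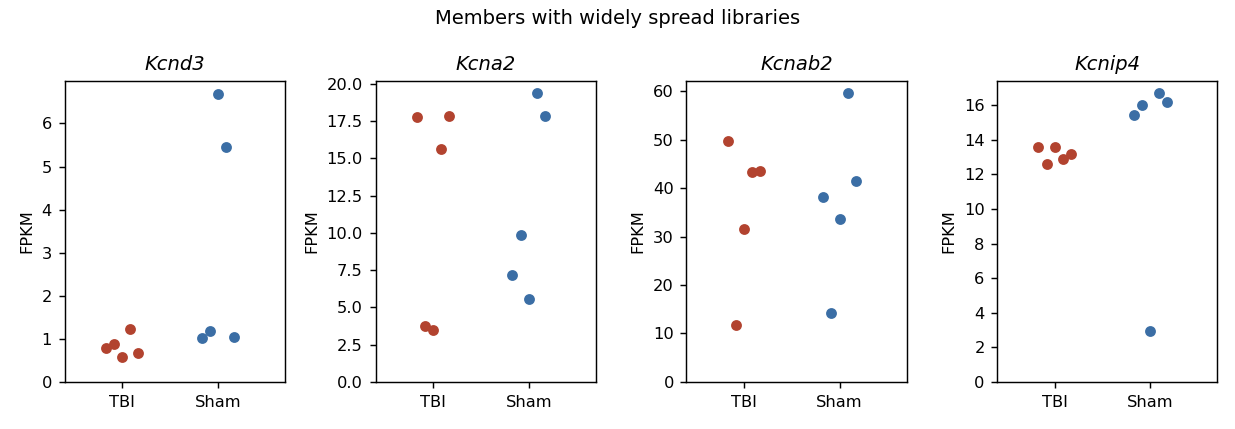
FPKM of Kcnd3, Kcna2, Kcnab2 and Kcnip4 in each TBI (red) and Sham (blue) library. Sham replicates 3 and 4 set the range of Kcnd3 (6.68 and 5.46 FPKM), and Sham replicate 3 that of Kcnip4 (2.95 FPKM).

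The Kcna5 subunit had 2.25, 1.65, 1.12, 5.48 and 3.28 FPKM in TBI, against 3.91, 1.72, 2.96, 1.34 and 4.20 FPKM in Sham. The striatal marker Drd1 had 10.01, 4.80, 8.51, 19.4 and 11.8 FPKM in TBI, against 14.3, 5.33, 15.5, 4.86 and 14.4 FPKM in Sham. TBI replicate 4 was highest for both genes, and Sham replicate 4 was lowest in its group for both. For Drd2, the other striatal marker, TBI replicate 4 was also highest (24.7 FPKM). Its lowest Sham library was replicate 2 (5.42 FPKM), with Sham replicate 4 at 5.56 FPKM. All libraries are labelled cerebral cortex, and the part of the tissue taken was not tested.

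The 22 members below the filter comprised 7 voltage-gated, 3 inward rectifier, 5 two-pore, 1 calcium-activated and 6 auxiliary genes. In a fit without the filter, 0 of them were called by edgeR, 1 had an unadjusted p under 0.05, and 1.87% of the 32852 genes in that fit were called. That 1 gene, Kcnn4, the intermediate-conductance channel of blood cells and microglia, averaged 0.0640 ± 0.0276 FPKM in TBI and 0.0319 ± 0.0078 FPKM in Sham (edgeR adjusted p = 0.41). The highest of the 22 by mean over all libraries were Kcnh6, Kcne4, Kcne2, Kcnk5 and Kcnmb1, at 0.525 to 0.232 FPKM, and Kcnj1, the kidney inward rectifier, had 0 counts in all 10 libraries. Kcna3, a channel of lymphocytes and activated microglia that was tested, had 0.957 ± 0.318 FPKM in TBI and 1.15 ± 0.361 FPKM in Sham (log2 change -0.31, edgeR adjusted p = 0.71).

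Of 22 genes for proteins that bind or assemble with these channels 21 were tested and 0 were called by edgeR, limma or DESeq2, with a median log2 change of -0.07. Among all tested genes 15.0% reached an unadjusted edgeR p under 0.05, and 2 of these 21 genes did. These were Dlg1, a synaptic scaffold that binds channel tails, with 8.34 ± 0.585 FPKM in TBI and 9.12 ± 0.341 FPKM in Sham (edgeR adjusted p = 0.20), and the calmodulin gene Calm2, with 789 ± 79.4 FPKM in TBI and 885 ± 53.6 FPKM in Sham (0.24). Of 16 genes of potassium and chloride transport across membranes 15 were tested, with a median log2 change of -0.06. Beside the 4.04% of all tested genes called, 1 of the 15 was called. That gene, Fxyd1, a regulator of the sodium-potassium pump that is abundant in astrocytes, had 13.8 ± 1.43 FPKM in TBI and 7.43 ± 0.823 FPKM in Sham (log2 change 0.85, edgeR adjusted p = 7.6e-04).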

How the data were processed

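Per the labels, TRIzol total RNA of 10 cerebral cortices was sequenced with paired reads on an Illumina NovaSeq. The submitters' processing notes name cutadapt 1.9, HISAT2, StringTie and mm10; other versions, the annotation and the strand setting are not given in the sources used here. The authors deposited estimated counts and FPKM for 55401 genes, named so per the file headers. All sample columns were used. Of the deposited count values from 1 to 12, 42.6% were 4, 8 or 12, so 1 fragment may stand for several counts and small counts carry less information than their size.

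Estimated counts were rounded to whole numbers and scaled by TMM. The groups were compared without covariates by the two-sided quasi-likelihood F test of edgeR 4.0.16 under R 4.3.3. The p-values of all 16316 tested genes were adjusted together (Benjamini-Hochberg). The approximate SE is the size of the log2 change over the square root of F. Groups and numbers came from sample titles; nothing further is said of the mice, and p-values measure the spread between these libraries. Same-numbered libraries did not deviate together (correlations of -0.11 to 0.13), so the numbers were not taken as pairs.

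Members, lists and tests were chosen with earlier results of these data known. Values were named for called members, for the 3 most abundant and the 2 with the smallest p in each subfamily, for members whose groups do not overlap, and for the 5 highest below the filter, 27 in all; 9 further members were named after their values were seen. Other members are given as ranges or counts, apart from the mean levels of Kcnj14 and Kcng2 beside the filter and the 0 counts of Kcnj1. A further 3 tested members enter the counts, medians and sums but are not reported or plotted individually here. Alternatives were DESeq2 1.42.0 (tool, and its size factors), limma 3.58.1 on log2(FPKM + 1) or log2(FPKM + 0.1), other filters, counts divided by 4, a replicate block and leaving out each library. Gene positions and coding sequences are from GENCODE M21 (GRCm38), where all 91 members were found by ID and 80 at the deposited position; 28 share exonic bases with another gene. The edgeR fit was tested on simulated data.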

Additional observations from a re-analysis of the deposited data

Results flagged for a closer look

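In 88 groups of 5 libraries, 8 single libraries stood apart from the rest of their group. The nominal rate of such flags is about 1 in 20 groups. Some of these groups belong to members named after their values were seen, and all genes share the same libraries. The count of flags therefore cannot be set against that rate. TBI replicate 1 stood high for Kcnj13 (5.46 FPKM), Kcne2 (2.60 FPKM) and the choroid plexus marker Ttr (853 FPKM). TBI replicate 2 stood high for Kcnk9, with 11.3 FPKM. Sham replicate 3 stood low for Kcnip4 (2.95 FPKM) and high for Ttr (27.6 FPKM). Sham replicate 4 stood high for Kcnmb4 (19.1 FPKM) and low for Kcna3 (0.513 FPKM). Of these 6 channel genes 5 were tested in the edgeR fit of all libraries and did not pass, and Kcne2 was below the filter.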

How the results depend on the processing

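Kcnk6 stayed called in each alternative that tested it, and Kcnv1 in each alternative run. Members called lower numbered 3, but 1 with a filter of 2 FPKM, 1 with limma at either pseudocount and 6 with DESeq2. DESeq2 added Kcnc2 (adjusted p 0.032), Kcnd3 (0.028) and Kcnma1 (0.020). Under the 2 FPKM filter Kcnk6 was not tested, leaving 0 called higher. Kcnb2 was not tested there either, and Kcnt2 narrowly missed the threshold (edgeR adjusted p 0.0501). Leaving out 1 library gave 1 to 3 members called lower, 1 without TBI replicate 3 or Sham replicate 2. The same 3 members were called lower without TBI replicate 4 or Sham replicate 1. Without Sham replicate 3 Kcnip4 took the place of Kcnt2, and without Sham replicate 5 Kcnma1 did. Of all genes, 582 were higher and 77 lower; 337 and 48 with the 2 FPKM filter, 43 lower without a filter, 229 lower in DESeq2, 42 and 39 lower in limma with pseudocounts of 1 and 0.1, and 441 to 659 higher and 37 to 84 lower without 1 library. With a replicate block, which has no support from pairing, 373 were higher and 29 lower, Kcnt2 was lost (adjusted p 0.158) and the other 3 members were kept. Without 1 library the median log2 change ranged from -0.19 to -0.13 (voltage-gated), -0.15 to -0.08 (inward rectifier), -0.20 to -0.09 (two-pore), -0.24 to -0.15 (calcium-activated) and -0.08 to 0.03 (auxiliary); in limma with pseudocounts of 1 and 0.1 it was -0.11 and -0.13 (voltage-gated), -0.084 and -0.086 (inward rectifier), -0.067 and -0.10 (two-pore), -0.068 and -0.12 (calcium-activated) and 0.04 at each (auxiliary), and with the 2 FPKM filter -0.11 (voltage-gated) and -0.02 (auxiliary; -0.00031 with the block). Over all tested genes the limma medians were 0.023 and 0.028, against -0.010 in the main fit. Signs turned for members that were not called: Kcnip3 was -0.0030 with DESeq2 size factors, -0.0029 in DESeq2 and -0.00031 with the block, and Kcnip4 was 0.15 and 0.19 in limma and 0.10 with the block. Without 1 library the log2 change ranged from -0.026 to 0.035 for Kcnip3, -0.31 to 0.14 for Kcnab2, -0.0032 to 0.14 for Kcnip2, -0.27 to 0.18 for Kcna2, -0.47 to 0.12 for Kcna5, -0.32 to 0.031 for Kcnip4 and -0.47 to 0.038 for Kcnn3. Causes were not tested. How small a difference could be detected below 0.5 FPKM was not measured.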
